A study of Homo sapiens with 6 samples.

Results

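The proteasome is the protease that degrades proteins marked with ubiquitin, and its subunits are described here at the mRNA level in Caco-2 cells cocultured with THP-1 cells. The members are 41 genes chosen by name as a family: 7 alpha and 7 constitutive beta subunits of the 20S core, 3 immune beta subunits, 6 ATPases and 14 other genes of the 19S cap (3 of which encode assembly chaperones), and 4 activators. Of these, 36 had a probe set annotated to their symbol alone, out of 19775 genes on the array, and where a gene had several such probe sets the one of highest mean log2 signal was followed. PSMA6 and PSME2 share their probe sets with another gene in the annotation, and PSMC5, PSMD7 and PSMD13 were not matched to a probe set here, so these 5 were not analysed.

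Caco-2, derived from a human colorectal adenocarcinoma, is a line that forms a polarised, enterocyte-like monolayer, and THP-1 comes from a human monocytic leukaemia. Monolayers aged 14 days on a porous insert were set over THP-1 cells that had been treated with phorbol myristate acetate for 4 days in a plate of 12 wells, a treatment that makes them macrophage-like. RNA of the Caco-2 cells was taken at 0, 1, 3, 6, 24 and 48 h, 1 array a time; without replicates nothing could be tested, and each value has n = 1. Each later array was set against the 0 h array, and none of the arrays analysed here holds Caco-2 cells kept alone for the same time, so effects of THP-1 cells and of time or handling cannot be told apart. Both lines are single tumour-derived lines, which limits them as models of gut epithelium and macrophages.

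Of 10 markers of enterocyte-like epithelium, all were above the signal floor of 16.2 on each array. Among 11 macrophage markers with a probe set, between 4 and 7 were under the floor on an array, with PTPRC and SPI1, a surface phosphatase and a transcription factor of blood cells, under it on all 6. CD14, ITGAM, LYZ and AIF1 were above it on all 6. AIF1, a calcium-binding protein of macrophages, had 360, 229, 111, 153, 96.5 and 43.0 at 0, 1, 3, 6, 24 and 48 h and was 8.37-fold lower at 48 h. LYZ, the gene of lysozyme, had 247, 296, 262, 199, 366 and 412 and did not pass 2-fold. FCER1G was 2.19-fold lower at 1 h and 2.32-fold lower at 3 and 6 h, where its signals lay near or under the floor. The summed macrophage signal lay between 488 and 677 after 0 h and was 797 at 0 h, and its part in the results below was not tested. For ACTB, the signal of the 3' control probe set over that of the 5' one, which reflects RNA integrity and labelling, was 51.2, 27.7, 22.9, 18.0, 27.9 and 37.0 at 0, 1, 3, 6, 24 and 48 h. The same ratio of GAPDH was 4.69, 3.81, 4.29, 3.54, 4.72 and 4.23.

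In the proteasome, rings of alpha subunits gate a chamber formed by beta subunits, 3 of which cut peptide bonds. The 19S cap binds ubiquitin chains, unfolds the substrate with its ATPases and feeds it into the core. Inflammatory signals, interferon-gamma above all, are known to replace the 3 cutting subunits by the immune forms PSMB8, PSMB9 and PSMB10 and to raise the activator PSME1, which favours peptides that MHC class I molecules present. In gut epithelium the immune forms are known to be raised in inflammation.

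Of the 36 proteasome genes, 1 rose and 3 fell past 2-fold. At 6 h, the time with the most calls, 2.78% of them were higher and 8.33% lower, against 4.23% and 6.45% of all measured genes. PSMD3, a subunit of the 19S lid, rose 3.04-fold by 1 h, was 5.06-fold and 5.29-fold higher at 3 and 6 h, and stood 2.73-fold higher at 48 h. PSME1, the alpha chain of an activator that opens the core, fell 2.34-fold and 2.62-fold at 3 and 6 h. PSMC3, a 19S ATPase, and PSMA3, an alpha ring subunit, were 2.17-fold and 2.06-fold lower at 6 h than at 0 h. With signals under the floor set to it, none of the 3 immune beta subunits passed 2-fold at any time. PSMB8 depends on that step: its own signals were over 2-fold lower at 1, 3 and 6 h, and with the floor at the 30th percentile its log2 ratio was -1.64 at each of them.

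Members past 2-fold were about as frequent as genes on the whole array. A gene counts as changed here when it differed at least 2-fold from 0 h after signals under the floor, the median of all signals, had been set to it, and the brighter array was above the floor. Higher members numbered 1, 1, 1, 0 and 1 of 36 at 1, 3, 6, 24 and 48 h, while 1.9%, 3.1%, 4.23%, 3.95% and 3.82% of the 14623 measured genes were called higher. Lower members numbered 0, 1, 3, 0 and 0, beside 1.44%, 3.52%, 6.45%, 6.14% and 6.14% of measured genes. A share of at most 2.78% (higher) and 8.33% (lower) of the members thus lies near that of all genes and is no result about the family. These are bulk arrays, so fewer cells with a transcript and less of it per cell cannot be told apart.

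At each time more of the members had a ratio below 0 than above it. The median log2 ratio to 0 h of the 36 members was -0.23, -0.25, -0.32, -0.11 and -0.14 at 1, 3, 6, 24 and 48 h, while that of all measured genes lay between -0.04 and 0. Among 7185 genes with a mean signal of at least 100, the range in which 33 of the 36 members lie, the medians were -0.03, -0.08, -0.10, -0.04 and -0.07. At 6 h, 30 of the 36 members (83.3%) had a ratio below 0, against 57.4% of these brighter genes. At least 1.5-fold lower were 3, 6, 10, 4 and 4 members at 1, 3, 6, 24 and 48 h, and 8.06%, 13.6%, 19.1%, 17.2% and 17.5% of measured genes passed that rule. The members' share was 27.8% at 6 h and 11.1% at both 24 and 48 h, above the background at the first of these times and below it at the other two. At least 1.5-fold higher were 3, 1, 1, 2 and 1 members, beside 6.53%, 9.55%, 11.3%, 12% and 11.2% of measured genes.

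Probe sets of a gene differed among themselves. Across genes with exactly 2 bright probe sets, the robust SD of a gene's log2 ratio between probe sets was 0.30, 0.38 and 0.41 at 1, 6 and 48 h, which is a spread of single genes and not of a median, and the variation between cultures was not measured. The ACTB 3' to 5' ratio was also lowest at 6 h (18.0), the time at which the members' median was lowest, and highest at 0 h (51.2). That of GAPDH was also lowest at 6 h (3.54) but highest at 24 h (4.72). The part of either in the result was not tested.

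**Figure D1:**
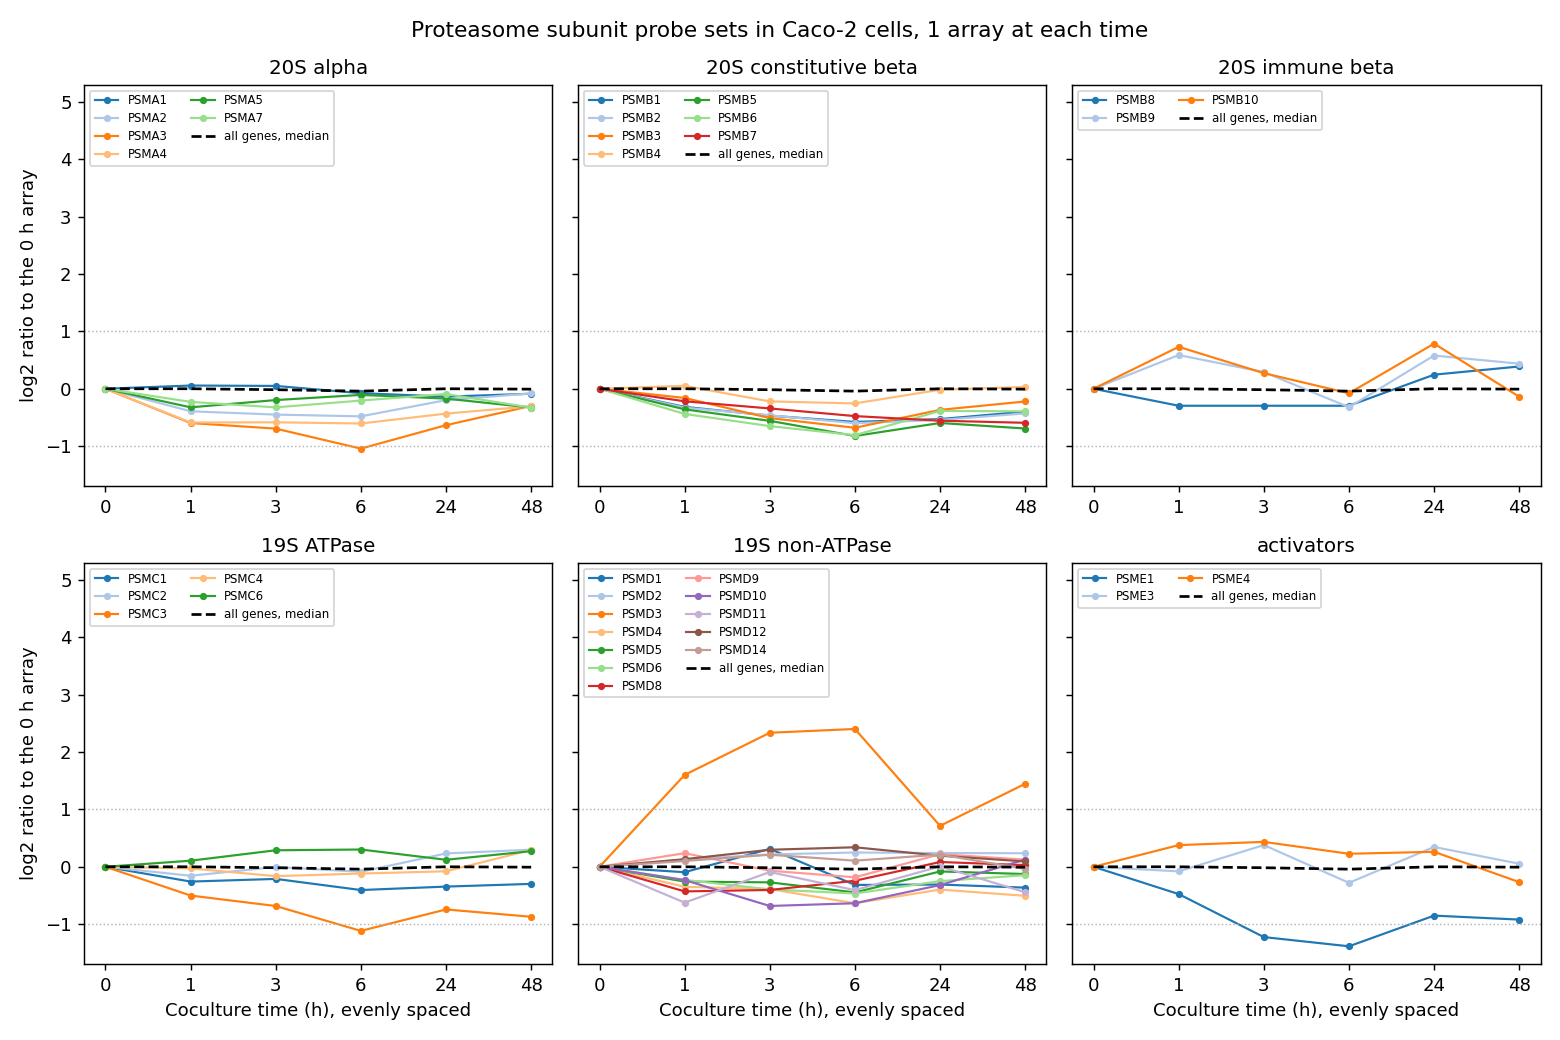
log2 ratio of each of the 36 subunits to the 0 h array (vertical axis) against coculture time in h (horizontal axis, evenly spaced), in 1 panel for each class. Points are single arrays, the dashed line is the median of all measured genes and dotted lines mark 2-fold; PSMD3 reaches 2.40 at 6 h and PSME1 -1.39, while the constitutive beta subunits lie together between -0.26 and -0.82.

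The promoters of 5 members are shown. These are the member that rose most, the one that fell most and the core protease subunit that was lowest at 6 h. Both immune subunits that were above the floor on at least 5 arrays were added. Of those shown, PSMB5, PSMB9 and PSMB10 did not pass 2-fold, and PSMA3 and PSMC3, which did, are not shown. Each run is the 250 bases before the gene start in RefSeq annotation of GRCh38.p14, on the gene's strand; for PSMB5, with 2 annotated starts, the first listed was taken. Capitals mark any match, on either strand, to 6 motifs that were searched. These were the antioxidant response element core TGACNNNGC, bound by NFE2L1 and NFE2L2, the interferon-stimulated response element core GAAANNGAA, the STAT motif TTCNNNGAA, the kappa B motif GGANTTNCC, the CCAAT box CCAAT and the ETS core CCGGAAG. The regions are chr17:39980557-39980806 (plus strand), chr14:24135944-24136193 (plus), chr14:23035221-23035470 (minus), chr6:32853942-32854191 (plus) and chr16:67936851-67937100 (minus).
PSMD3: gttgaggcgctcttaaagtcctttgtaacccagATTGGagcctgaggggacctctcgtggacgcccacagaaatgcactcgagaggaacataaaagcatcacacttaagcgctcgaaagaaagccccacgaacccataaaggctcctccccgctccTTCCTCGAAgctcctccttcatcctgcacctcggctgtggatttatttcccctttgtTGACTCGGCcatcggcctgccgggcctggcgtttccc
PSME1: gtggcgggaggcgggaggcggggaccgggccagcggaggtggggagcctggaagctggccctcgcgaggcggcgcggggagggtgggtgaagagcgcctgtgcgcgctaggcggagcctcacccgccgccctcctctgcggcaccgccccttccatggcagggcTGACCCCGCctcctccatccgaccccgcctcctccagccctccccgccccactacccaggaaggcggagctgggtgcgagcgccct
PSMB5: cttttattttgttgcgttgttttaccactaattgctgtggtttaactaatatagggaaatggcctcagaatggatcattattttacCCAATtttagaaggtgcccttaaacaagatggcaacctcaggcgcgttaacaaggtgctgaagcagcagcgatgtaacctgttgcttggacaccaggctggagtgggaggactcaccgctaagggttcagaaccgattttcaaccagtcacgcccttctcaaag
PSMB9: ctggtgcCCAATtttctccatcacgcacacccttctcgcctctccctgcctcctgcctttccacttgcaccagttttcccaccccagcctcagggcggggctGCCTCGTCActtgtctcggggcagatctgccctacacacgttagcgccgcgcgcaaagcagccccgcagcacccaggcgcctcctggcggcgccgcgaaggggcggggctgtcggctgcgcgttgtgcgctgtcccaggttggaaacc
PSMB10: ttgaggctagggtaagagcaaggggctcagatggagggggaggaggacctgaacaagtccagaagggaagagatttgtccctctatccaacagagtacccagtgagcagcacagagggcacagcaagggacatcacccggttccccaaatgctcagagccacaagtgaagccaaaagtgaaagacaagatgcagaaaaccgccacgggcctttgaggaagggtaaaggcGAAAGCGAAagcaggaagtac

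PSMD3 and PSME1, which moved in opposite directions, both hold the antioxidant response element core, starting 37 and 86 bases before the gene start. PSMB9 holds it on the opposite strand 148 bases before the start. PSMB10 holds the interferon-stimulated response element core 21 bases before its start, and PSMB5 a CCAAT box, at 164 bases. The other marked matches are a STAT motif and a CCAAT box in PSMD3 (94 and 217 bases before the start) and a CCAAT box in PSMB9 (243 bases). The promoter of PSMB8, the remaining immune subunit, is not shown and held no match to any of the motifs searched. Those of PSMA3 and PSMC3, also not shown, held CCAAT boxes only. In the 36 member promoters present in the RefSeq table, the antioxidant response element core was found in 9 (25%), against 3013 of 27305 promoters, 1 for each gene. These 36 are not the 36 measured genes: PSMA6, PSMC5, PSMD7, PSMD13 and PSME2 are among them, and PSMA7, PSMB1, PSMB6, PSMB7 and PSMD4 are not. The interferon core was in 4 (11.1%, all promoters 7.06%), the STAT motif in 4 (11.1%, all 6.78%), kappa B in 1 (2.78%, all 3.67%), the CCAAT box in 16 (44.4%, all 33.0%) and the ETS core in 8 (22.2%, all 8.82%). The motifs do not overlap in the 5 promoters shown. A match describes these letters and is no evidence of binding.

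The immune beta subunits had low signals, the highest being 49.0. The floor of 16.2 beside which they are read is the median of all signals and no detection limit. PSMB9, the immune subunit of the beta 1 position, had signals of 20.3, 30.5, 24.8, 14.8, 30.3 and 27.5 at 0, 1, 3, 6, 24 and 48 h. PSMB10, of the beta 2 position, had 28.4, 47.2, 34.3, 26.9, 49.0 and 25.8. PSMB8, of the beta 5 position, had 19.9, 6.13, 3.05, 3.19, 23.6 and 26.1. PSMB9 and PSMB10 were highest at 1 and 24 h. PSMB8 was under the floor at 1, 3 and 6 h, and PSMB9 at 6 h. Their largest log2 ratios were 0.59 for PSMB9 at 1 h, 0.79 for PSMB10 at 24 h and 0.39 for PSMB8 at 48 h, and each gene has a single probe set. For dim genes with 2 probe sets the robust SD of a ratio was 0.45 at 1 h and 0.48 at 24 h, so a spread of that order stands beside each of these ratios.

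The constitutive counterparts were well above the floor, and in the probe sets followed each had a log2 ratio below 0 at each later time. PSMB6, the caspase-like subunit of beta 1, had signals of 224, 165, 143, 128, 171 and 171 at 0, 1, 3, 6, 24 and 48 h. PSMB7, the trypsin-like subunit of beta 2, had 1541, 1324, 1214, 1107, 1047 and 1021. PSMB5, the chymotrypsin-like subunit of beta 5, had 869, 678, 590, 491, 575 and 538. PSMB5 and PSMB6 were lowest at 6 h and PSMB7 at 48 h, and none of these 3 probe sets reached 2-fold. The second probe set of PSMB7 was dim, with signals of 32.6 to 68.8, and had log2 ratios of 1.08, -0.19, 0.48, 0.44 and 0.19 at 1, 3, 6, 24 and 48 h, past 2-fold higher at 1 h. The brighter one had -0.22 at 1 h and -0.48 at 6 h.

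With the floor, probe sets and 0 h baseline used here, an immune subunit's log2 ratio minus that of its counterpart was positive at each time for all 3 pairs. For PSMB9 against PSMB6 it was 1.03, 0.94, 0.49, 0.97 and 0.83 at 1, 3, 6, 24 and 48 h. For PSMB10 against PSMB7 it was 0.95, 0.62, 0.40, 1.34 and 0.45, and for PSMB8 against PSMB5 0.06, 0.26, 0.53, 0.84 and 1.08. These values are differences of changes, not of levels, and all depend on the single 0 h array. The dim second probe set of PSMB7 had a log2 ratio above that of PSMB10 at 1, 6 and 48 h and below it at 3 and 24 h. The differences also depend on the floor. With the floor at the 30th percentile the first 3 for PSMB8 were -1.28, -1.08 and -0.82, and with a pseudocount they were -0.34, -0.36 and -0.09. With the floor at the 65th percentile the difference for PSMB9 was 0.44 and 0.39 at 1 and 24 h, where the log2 ratio of PSMB9 itself was 0. When set against the 1 h array instead, the difference for PSMB9 was between -0.54 and -0.06 at all later times. That for PSMB10 was then -0.33, -0.55, 0.39 and -0.50 at 3, 6, 24 and 48 h.

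**Figure D2:**
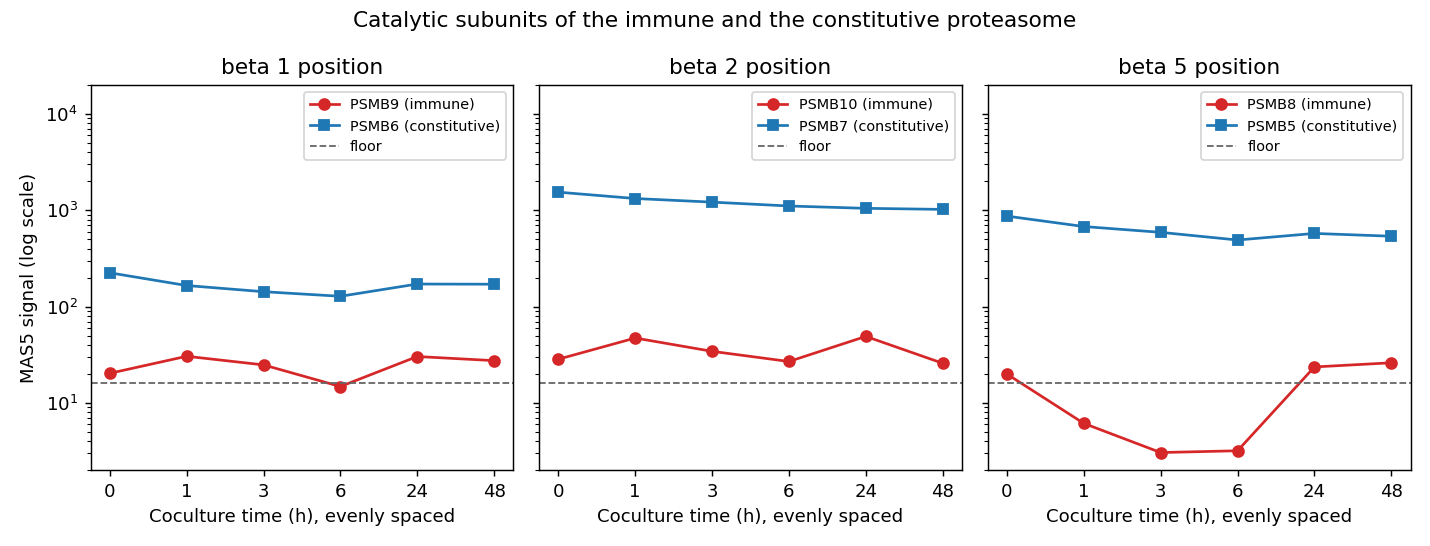
MAS5 signal on a log scale (vertical axis) against coculture time in h (horizontal axis, evenly spaced), with 1 panel for each catalytic position, the immune subunit as circles and its constitutive counterpart as squares. Each point is 1 array and the dashed line is the floor of 16.2. Signals of different probe sets are not comparable as levels. PSMB8 lies under the floor at 1, 3 and 6 h, and PSMB9 at 6 h.

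The other constitutive beta subunits, PSMB1 to PSMB4, have no cutting activity. In the probe sets followed, all 7 constitutive beta genes had ratios below 0 at 3, 6 and 24 h. Of genes with a mean signal of at least 100, 57.2%, 57.4% and 52.7% were below 0 at these times. All these ratios share the single 0 h array. The class medians were -0.32, -0.47, -0.60, -0.53 and -0.40 over the 5 times. PSMB5 had the lowest value of the class at 6 h (-0.82) and at 48 h (-0.69). PSMB4 had the highest at both, with signals of 1704, 1765, 1462, 1427, 1683 and 1741 from 0 to 48 h. Both PSMB1 probe sets above the floor were lower at each time, with log2 ratios of -0.81 and -0.58 at 6 h. PSMB2 and PSMB3 had -0.60 and -0.68 at that time. For PSMB4 the 3 probe sets ran from -0.92 to 0.49 at 3 h and from -0.70 to 0.13 at 6 h. For PSMB2 the 3 probe sets above the floor ran from -0.46 to 0.90 at 3 h and from -0.54 to 0.56 at 24 h. The PSMB2 values above 0 came from dim probe sets, with signals of 16.9 to 71.6.

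The alpha subunits, which form the outer rings and the gate, had medians of -0.36, -0.39, -0.34, -0.19 and -0.30. PSMA3 had signals of 691, 457, 427, 335, 445 and 562 at 0, 1, 3, 6, 24 and 48 h and was 2.06-fold lower at 6 h than at 0 h. Its signal was lowest at 6 h and at 48 h was back within 1.23-fold of 0 h. This call is at the edge of the rule: the log2 ratio of -1.04 was -0.99 with arrays scaled to a common median. With the median over its 3 probe sets, of which only 1 was above the floor on all arrays, it was 0.47. PSMA1 had the highest log2 ratio of the class at 6 h (-0.08), with signals of 3462, 3599, 3582, 3282, 3147 and 3259 from 0 to 48 h. Another of its probe sets had -0.47 at 6 h and at 24 h. PSMA2 had the highest value of the class at 48 h (-0.08), and PSMA7 the lowest there (-0.33). PSMA4, also of the ring, had -0.61 at 6 h and PSMA5 -0.11.

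The 13 alpha and constitutive beta members were counted together, a grouping made after seeing the values. In the probe sets followed, 13 of 13 had ratios below 0 at 6 and at 24 h. Of genes with a mean signal of at least 100, 57.4% and 52.7% were below 0 at these times. Some other probe sets above the floor on all arrays had ratios above 0, for PSMB4 and PSMB7 at 6 h and for PSMB2 and PSMB7 at 24 h. The counts also rest on the single 0 h array. PSMA5 and PSMA7 had higher signals at 6 h than at 1 h, and the rest of the 13 had lower ones. At 24 h, PSMA2, PSMA4, PSMA5, PSMA7 and PSMB6 were above their 1 h signals, and the rest were below them. The median of the 13 members was -0.58 at 6 h and -0.33 at 48 h. The 14 measured subunits of the 19S cap in the member list, without the 3 assembly chaperones, had medians of -0.18 and -0.0037 at 6 and 48 h. Of them, 9 and 7 were below 0 (64.3% and 50%), beside 57.4% and 54.9% of the brighter genes. With the chaperones the medians over 17 genes were -0.24 and 0.03. SEM1 and ADRM1, cap proteins outside the member list, were not counted and had log2 ratios of -1.03 and 0.66 at 6 h. Whether core and cap differ was not tested.

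The 19S ATPases did not move together. PSMC3 had signals of 243, 171, 151, 112, 145 and 133 at 0, 1, 3, 6, 24 and 48 h, each later value below that at 0 h, and passed 2-fold at 6 h. It is represented by 1 probe set, and against the 1 h array its log2 ratio at 6 h was -0.62, short of 2-fold. PSMC6, another subunit of the ATPase ring, had 1542, 1660, 1882, 1900, 1678 and 1862, each above 0 h, with a log2 ratio of 0.30 at 6 h. PSMC2 had the highest ratio of the class at 48 h, 0.30. Its probe sets disagreed, with log2 ratios from -1.05 to 0.10 at 6 h and from -1.06 to 0.23 at 24 h. PSMC1 and PSMC4 had ratios of -0.41 and -0.12 at 6 h. The class median was -0.12 at 6 h and 0.27 at 48 h, and the 48 h value was -0.30 with the median over the probe sets of a gene.

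PSMD3 had the highest log2 ratio of the 12 measured non-ATPase cap genes at all 5 times. It had signals of 38.8, 118, 196, 205, 63.7 and 106 at 0, 1, 3, 6, 24 and 48 h, higher than at 0 h on each later array and highest at 3 and 6 h. It is represented by 1 probe set. Against the 1 h array its log2 ratios were 0.74 at 3 h, 0.80 at 6 h and -0.15 at 48 h, so the rise past 2-fold rests on the 0 h array. The remaining 11 non-ATPase members had log2 ratios between -0.64 and 0.34 at 6 h.

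Of the scaffolds of the base, PSMD2 had 897, 979, 1041, 1065, 1059 and 1056 from 0 to 48 h, and PSMD1 a log2 ratio of -0.32 at 6 h. PSMD4, a receptor for ubiquitin chains, had 2407, 1889, 1838, 1548, 1827 and 1694 and the lowest ratio of the class at both 6 h (-0.64) and 48 h (-0.51). Its 3 probe sets above the floor all pointed the same way at 6 h, from -0.86 to -0.64. PSMD14, the lid enzyme that removes ubiquitin chains, had log2 ratios between -0.04 and 0.21 at all times. PSMD12, also of the lid, had 0.34 at 6 h, and both its probe sets were above 0 at each time. PSMD5, PSMD9 and PSMD10, chaperones that help assemble the base and are not part of the finished proteasome, had -0.45, -0.18 and -0.64 at 6 h and -0.13, 0.12 and 0.13 at 48 h. PSMD6, PSMD8 and PSMD11, lid subunits, had -0.47, -0.24 and -0.41 at 6 h.

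The activators differed among themselves. PSME1 had signals of 1623, 1167, 694, 621, 900 and 857 at 0, 1, 3, 6, 24 and 48 h. All 5 later arrays were below 0 h, and the values were lowest at 3 and 6 h. At 24 and 48 h it was 1.80-fold and 1.89-fold lower, short of the 2-fold rule, and against the 1 h array its log2 ratio was -0.91 at 6 h. PSME3, an activator of the nucleus, had 186, 176, 242, 153, 236 and 193, with its 4 probe sets between -0.80 and -0.28 at 6 h and between -0.54 and 0.35 at 24 h. PSME4, a large single-chain activator, had 311, 404, 420, 364, 373 and 258, with a highest log2 ratio of 0.43 at 3 h. The 4 PSME3 probe sets ran from -0.49 to 0.38 at 3 h, and the class median at 3 h was 0.38 as reported and -0.40 when _x_at and _s_at probe sets were left out.

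**Figure D3:**
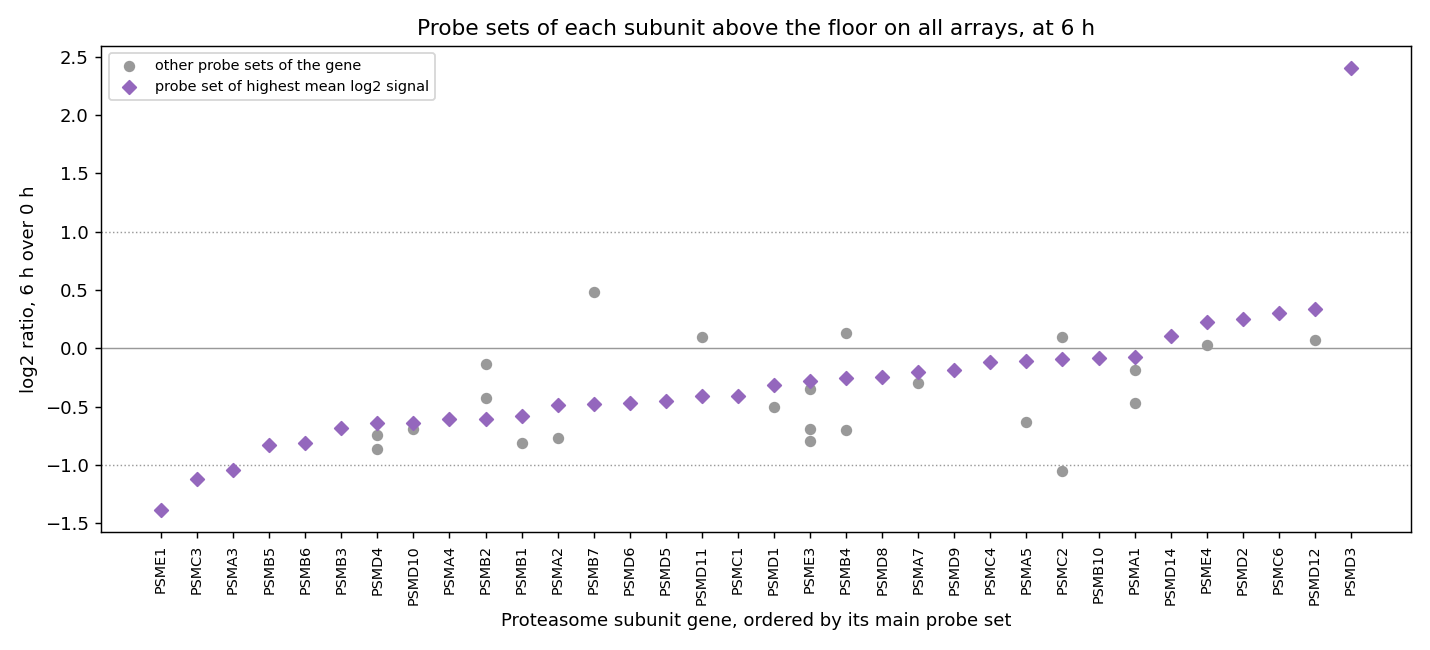
log2 ratio of 6 h over 0 h (vertical axis) for each probe set above the floor on all 6 arrays, by subunit gene ordered along the horizontal axis; diamonds are the probe sets used and circles the others of the same gene. Of 16 genes with 2 or more such probe sets, 12 have all of them on the same side of 0, and those of PSMC2 run from -1.05 to 0.10.

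Across the 16 genes for which 2 or more probe sets exceeded the floor on all arrays, all probe sets pointed the same way in 6, 9, 12, 12 and 9 genes at 1, 3, 6, 24 and 48 h. The median range between probe sets of a gene was 0.34 at 6 h and the widest 1.15, in PSMC2. Probe sets share the RNA and the array and are no replicates.

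Later arrays were also set against the 6 h array, which was not a planned comparison. The members' median against 0 h was lowest at 6 h, so this baseline favours later values above it. At 24 h, 29 of 36 members (80.6%) were above their 6 h value, against 55.5% of genes with a mean signal of at least 100, and the median log2 ratio was 0.23 against 0.05. At 48 h, 23 members (63.9%) were above it, against 54.0%, with medians of 0.21 and 0.04. The ACTB 3' to 5' ratio was higher at 24 h (27.9) and at 48 h (37.0) than at 6 h (18.0), and its part in this was not tested.

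Genes that assemble, regulate or work with the proteasome were followed in the same way. From a list of 43 such genes, 35 were measured, and 1, 1, 1, 0 and 0 were higher and 0, 0, 3, 1 and 0 lower than at 0 h past 2-fold at 1, 3, 6, 24 and 48 h. At 6 h these were 2.86% higher and 8.57% lower, against 4.23% and 6.45% of measured genes. NFE2L2, the transcription factor of the antioxidant response, had signals of 1099, 1810, 2312, 2761, 1704 and 1895, was 2.10-fold and 2.51-fold higher at 3 and 6 h, and both its probe sets above the floor were higher at each time. NFE2L1, known to raise proteasome genes when the proteasome is inhibited, had 2770, 2343, 1940, 1881, 2165 and 2212 and did not pass 2-fold, although 1 of its 3 probe sets had a log2 ratio of -1.02 at 6 h. IRF1, a factor known to drive the immune subunits, had 58.5, 190, 85.6, 114, 88.2 and 84.8. It was 3.25-fold higher at 1 h, where PSMB8 was under the floor and PSMB9 and PSMB10 had log2 ratios of 0.59 and 0.73. The second probe set of IRF1 had a log2 ratio of 0.67 at 1 h.

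SEM1, a small subunit of the 19S lid, had signals of 1068, 731, 591, 523, 524 and 647 and was 2.04-fold lower at both 6 and 24 h. PSMG4, an assembly chaperone of the core, had 498, 409, 397, 245, 497 and 329 and was 2.04-fold lower at 6 h, although its other probe set above the floor had a log2 ratio of -0.04. ADRM1, a ubiquitin receptor of the cap, had 189, 302, 327, 299, 342 and 290, higher than at 0 h on each array and up to 1.81-fold. POMP, the maturation factor of the core, stayed between 2892 and 3292. Of the transporter that carries peptides to MHC class I molecules, TAP2 was 2.03-fold lower at 6 h, with a signal of 33.1 at 6 h and 67.1 at 0 h. TAP1, its partner, had 57.2 to 80.6 up to 24 h and 49.7 at 48 h.

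**Figure D4:**
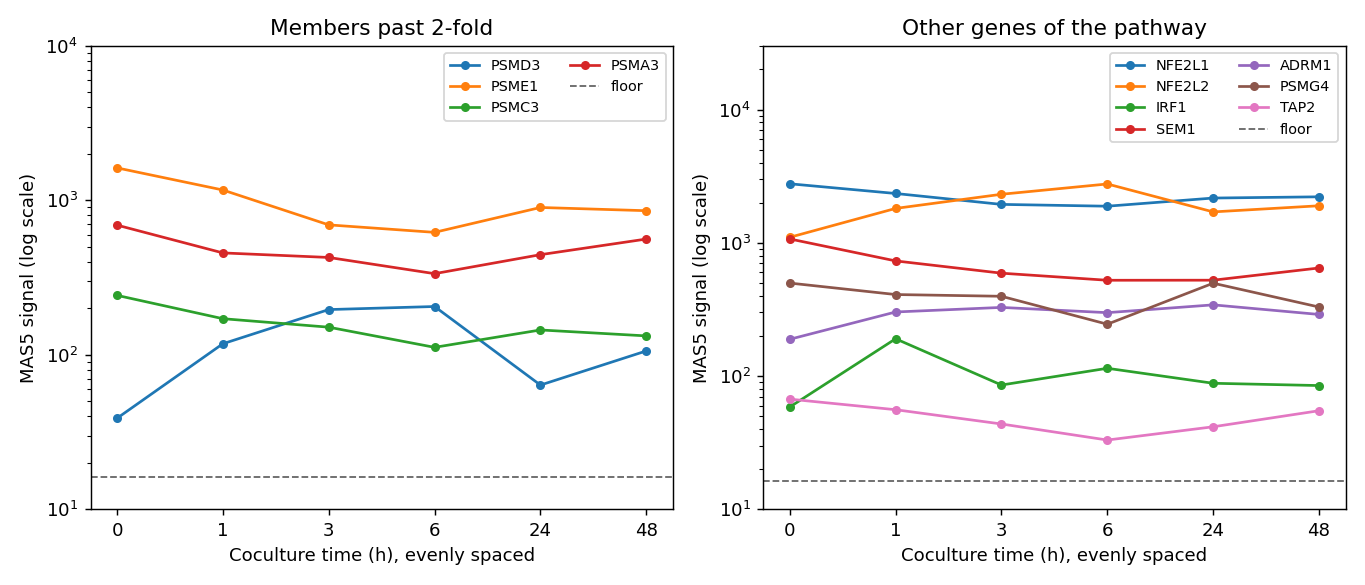
MAS5 signal on a log scale (vertical axis) against coculture time in h (horizontal axis, evenly spaced) for the 4 subunits past 2-fold (left) and for 7 other genes of the pathway (right); each point is 1 array and the dashed line is the floor of 16.2. PSMD3 is highest at 3 and 6 h and PSME1 lowest at 6 h, while NFE2L2 reaches 2761 at 6 h.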

How the data were processed

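Per the submitters' processing notes, MAS5 made the deposited intensity values (linear scale, Affymetrix arrays of the Caco-2 cells); the MAS5 version and scaling target: not given in the sources used here. All 6 arrays had a 2% trimmed mean of 93.8, so they were not rescaled. Signals under 16.2, the 50th percentile of all signals, were set to that floor before log2. Of 54675 probe sets, 41097 carry 1 gene symbol, 1801 several and 11777 none in the platform annotation; symbols were updated through a RefSeq gene table (GRCh38.p14), which held 41037 of the identifiers. For each of 19775 genes the probe set of highest mean log2 signal was used. Genes above the floor on 1 or more arrays (14623) are called measured; 10446 were above it on all 6.

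Each coculture time was set against 0 h by size (2-fold, and 1.5-fold as a second rule), as 1 array at each time allows no test; the number of arrays limits the precision. The size rule was tested on simulated data, with known changes well past 2-fold put into genes with a 0 h signal over 100. That test does not cover changes near 2-fold or genes that are dim at 0 h, such as PSMD3. The members, classes and lists were chosen with earlier results of these data known. Members described in full were, by rule, the immune subunits and their counterparts, the activators, those past 2-fold and each class's extremes at 6 and 48 h; others are named for their role. The split of the cap into base, lid and chaperones, the joint counts of the core and of the cap without chaperones, leaving out PSMD3, and the brighter genes as a background were chosen after seeing the data. The comparison with the 6 h array was also not planned. Alternatives were other floors (30th and 65th percentiles, 6.38 and 37.5), a pseudocount of 16.2 in place of the floor, quantile or common median normalization, other probe set choices, the 1 h array as the baseline and other fold rules. Computation used Python 3.11.15 with numpy 2.4.6 and pandas 2.3.3.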

Additional observations from a re-analysis of the deposited data

How the results depend on the processing

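Counts are given here where they moved by over 1.5 times, and class medians and immune differences where they moved by more than the robust SD of a gene's log2 ratio between probe sets. That bar is wide for a median, so a value not listed is not shown to be stable: with the floor at the 65th percentile the immune median at 6 h was 0, against -0.30 as reported. Over the alternatives the median of all members at 6 h ranged from -0.41 to -0.19 and that of the constitutive beta subunits from -0.68 to -0.31. Quantile normalization left the counts past 2-fold at 6 h at 1 higher and 3 lower, and a common median gave 1 and 2, with the PSMA3 ratio at -0.99. PSMD3 was the only member in each count of higher members, so without it, an alternative chosen after seeing the data, these were 0 at 1, 3, 6 and 48 h. The 1.5-fold rule gave 3 higher members at 1 h and 2 at 24 h, and 3, 6, 10, 4 and 4 lower ones over the 5 times; the 3-fold rule gave 0 lower at 3 and 6 h and 0 higher at 48 h. With the floor at the 30th percentile, 1 member was lower at 1 h and 2 at 3 h, because PSMB8 then passed 2-fold, and PSMB8 minus PSMB5 was -1.28, -1.08 and -0.82 at 1, 3 and 6 h. With a pseudocount it was -0.34, -0.36 and -0.093 at these times. With the floor at the 65th percentile the immune median was 0 at 1 and 24 h, since the subunits then lie near or under it, and PSMB9 minus PSMB6 was 0.44 and 0.39. The median over probe sets gave 1 lower member at 24 h, a 19S ATPase median of -0.30 at 48 h, activator medians of -0.19 and -0.15 at 3 and 24 h, and PSMB10 minus PSMB7 of 0.30 and 0.85 at 1 and 24 h. It also turned PSMA3 at 6 h to 0.47, where the median of its 3 signals on each array comes from a dim probe set. Without _x_at and _s_at probe sets, which leaves 27 members, 1 member was lower at 24 h (PSMC2, -1.06), and the activator medians were -0.40 and -0.30 at 3 and 24 h. Against the 1 h array, 0 members were higher at 3, 6 and 48 h and 0 lower at 3 and 6 h, and PSMD3 at 48 h was -0.15. The alpha medians were then -0.032 and 0.14 at 3 and 48 h, and the immune medians -0.30, 0.056 and -0.15 at 3, 24 and 48 h. On that baseline PSMB9 minus PSMB6 was -0.084, -0.54, -0.060 and -0.20, and PSMB10 minus PSMB7 -0.33, -0.55, 0.39 and -0.50, at 3, 6, 24 and 48 h. The causes of these shifts were not tested beyond what the alternatives' construction shows. The low signals of the immune subunits limit what can be said of them, and 1 array at each time leaves the variation between cultures unknown.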

Other observations

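Genes beside PSMD3 were looked at after its values were seen. CSF3, which encodes a granulocyte growth factor and is the next protein-coding gene after PSMD3 in the RefSeq table of GRCh38.p14, was under the floor on all 6 arrays, with signals of 4.90, 8.88, 3.13, 11.6, 13.8 and 3.17 at 0, 1, 3, 6, 24 and 48 h. MED24, a subunit of the Mediator complex that follows it, was also under the floor on all arrays in the probe set used. PSMD3 itself reached a signal of 205 at 6 h, against 38.8 at 0 h.

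Other partners of the proteasome, chosen after their values were seen, lay just short of the 2-fold rule. UFD1, a cofactor of the p97 segregase that draws proteins out of membranes, had signals of 462, 331, 266, 248, 233 and 403 at 0, 1, 3, 6, 24 and 48 h. PAAF1, a protein that binds the cap ATPases, had 463, 315, 273, 239, 283 and 309. Both were lower than at 0 h on each later array, by up to 1.98-fold for UFD1 at 24 h and 1.94-fold for PAAF1 at 6 h.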
